A study of Homo sapiens with 56 samples.

Results

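The glycolysis and hypoxia response genes described here are 39 of the 21595 named genes in an RNA-seq table of human mantle cell lymphoma cultures. They were listed by name for their known roles, with earlier results of these data known. The list holds the enzymes of glycolysis and their regulators, the glucose and lactate carriers and the pyruvate dehydrogenase kinases. It also holds the hypoxia-inducible factor subunit HIF1A with targets of that factor, and the sugar-responsive genes TXNIP and ARRDC4. All 39 were found in the table, and 35 of them were at 1 CPM (counts per 1 M reads) or more in all 56 libraries; the others were PFKL (55 libraries), NDRG1 (54), PFKFB4 (52) and ARRDC4 (28).

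The 56 libraries came from 4 cell line cultures, namely 15 of JEKO-1, 13 of Z138, 15 of MINO-P and 13 of MINO-VR. MINO, JEKO-1 and Z138 are established lines of mantle cell lymphoma, a B cell cancer. The labels give each library a treatment code: CON, taken as untreated (5 libraries), the single agents IBR (11), BTZ (6), CLF (6), S63845 (6) and YM155 (4), and the pairs IBR_CLF (8), BTZ_CLF (4), BTZ_YM155 (2), IBR_YM155 (2), BTZ_S63845 (1) and IBR_S63845 (1). S63845 inhibits the survival protein MCL-1, and YM155 was developed against expression of the survivin gene. The codes CLF, BTZ and IBR are used as the labels write them, because the labels do not spell them out, and the labels used here give no dose or time. Of the 37 groups of one line and one treatment, 22 held 1 library, 11 held 2 and 4 held 3. Each line is a single culture, and nothing in the labels says that libraries of a group came from separate cultures, so p-values measure the spread between these libraries, which may be technical.

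Glycolysis breaks glucose down to pyruvate in the cytosol. Hexokinases trap glucose as its phosphate, phosphofructokinases commit it to the pathway, and lactate dehydrogenase turns the pyruvate into lactate, which monocarboxylate carriers export. When oxygen is short, the prolyl hydroxylases EGLN1 and EGLN3 no longer mark HIF1A for destruction, and the factor then raises many glycolytic genes together with BNIP3, VEGFA, ADM, NDRG1 and others. TXNIP and ARRDC4 are arrestin-like proteins that restrain glucose uptake, and their genes are read out when sugar phosphates activate the factors MondoA and ChREBP. Many B cell cancers use glycolysis heavily.

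The promoters of 5 members show the short sequences to which these 2 kinds of factor are known to bind. TXNIP and ARRDC4 are shown because their levels set the cell lines apart, LDHA and HK2 because they fell most under IBR, and KDM3A because it rose. The sequences are the 250 bases before the first-listed start, from RefSeq on GRCh38.p14, 5′ to 3′ on the gene's strand. Capitals mark the motifs ACGTG or GCGTG, found on either strand, which hold the core of the hypoxia response element. In TXNIP capitals mark instead a paired motif of the carbohydrate response element, CACGNG, 5 bases and CACGNG again. The windows are chr1:145996580-145996829 (minus strand) for TXNIP, chr15:97960453-97960702 (plus) for ARRDC4, chr11:18394313-18394562 (plus) for LDHA, chr2:74833877-74834126 (plus) for HK2 and chr2:86441121-86441370 (plus) for KDM3A. The RefSeq start used for KDM3A lies downstream of the first base of the gene span given below, so that this window is inside that span; the last bases of the LDHA window are likewise inside its span.
TXNIP: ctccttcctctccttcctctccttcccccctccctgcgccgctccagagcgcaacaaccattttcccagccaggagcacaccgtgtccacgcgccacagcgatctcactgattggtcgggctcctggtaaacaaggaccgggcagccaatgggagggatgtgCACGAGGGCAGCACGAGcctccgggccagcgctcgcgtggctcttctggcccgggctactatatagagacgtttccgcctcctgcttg
ARRDC4: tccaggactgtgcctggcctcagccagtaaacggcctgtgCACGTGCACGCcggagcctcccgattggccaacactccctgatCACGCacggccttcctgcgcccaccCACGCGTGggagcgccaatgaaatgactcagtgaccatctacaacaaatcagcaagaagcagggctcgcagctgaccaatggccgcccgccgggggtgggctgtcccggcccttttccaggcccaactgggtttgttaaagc
LDHA: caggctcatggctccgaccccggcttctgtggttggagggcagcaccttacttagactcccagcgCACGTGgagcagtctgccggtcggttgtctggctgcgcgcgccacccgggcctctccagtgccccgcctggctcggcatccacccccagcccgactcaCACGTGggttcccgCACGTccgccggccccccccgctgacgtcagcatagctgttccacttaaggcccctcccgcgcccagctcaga
HK2: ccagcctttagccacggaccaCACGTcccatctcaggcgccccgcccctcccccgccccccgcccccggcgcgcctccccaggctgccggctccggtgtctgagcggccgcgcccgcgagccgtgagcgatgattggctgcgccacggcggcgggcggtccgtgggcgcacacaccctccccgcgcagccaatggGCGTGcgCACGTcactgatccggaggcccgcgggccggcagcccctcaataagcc
KDM3A: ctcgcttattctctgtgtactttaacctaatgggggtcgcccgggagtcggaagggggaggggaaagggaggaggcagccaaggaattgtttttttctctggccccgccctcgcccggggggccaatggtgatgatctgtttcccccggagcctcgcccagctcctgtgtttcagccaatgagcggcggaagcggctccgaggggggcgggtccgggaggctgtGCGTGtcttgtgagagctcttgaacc

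RefSeq promoters were matched for 34 of the 39 members; SLC2A3, SLC16A1, BNIP3L, VEGFA and NDRG1 had no entry. The paired motif lay 88 to 72 bases before the TXNIP start. It was found in 16 of 27305 promoters (0.0586%), and 2 of those belonged to members, TXNIP and P4HA1. The window of LDHA held 5 matches to ACGTG, counted on both strands, so that the palindrome CACGTG gives 2 overlapping matches. ARRDC4 held 6 matches to ACGTG or GCGTG, HK2 held 3 and KDM3A held 1. Either motif was in 22 of the 34 member windows, beside 43.1% of all promoters, and ACGTG was in 14 of the 34, beside 18.7%. A match describes these letters and is not a binding site.

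The libraries held 5.52 to 21.6 M reads, recovered from the steps of the low values, with a median of 16.0 M. Mitochondrial genes took 1.91% to 80.5% of a library, so levels below are CPM over the nuclear genes alone. That share differed between treatments: it was 1.91% to 3.92% in CON, 5.58% to 20.9% in IBR and 4.11% to 67.6% in BTZ, and its part in the results was not tested. The B cell markers MS4A1, CD79A, CD79B and PAX5 and the lymphoma markers CCND1 and SOX11 were at 1 CPM or more in all 56 libraries, and CD22 in 48. Among T cell markers CD3D, CD3E and CD2 were at 0 in 43, 41 and 53 libraries. The 4 T cell markers summed, mostly TRAC, reached 0.910 to 42.3 CPM in CON and 0.111 to 4 CPM in IBR. CCND1 and SOX11 summed reached 2218 to 3742 CPM in CON and 755 to 3065 CPM in IBR. Before the results, 3 features of the libraries need stating. The library JEKO-1 BTZ 3 stood apart from all others, with PFKL and NDRG1 listed at 0 (3 reads correspond to 0.221 CPM there), the lowest GAPDH, ENO1 and ALDOA and the highest PDK1, PDK3, BNIP3L and MXI1 of the series. Over 7996 well expressed genes, JEKO-1 CLF 1 and JEKO-1 CON 1 differed by an SD of 0.174 on the log2 scale, and Z138 IBR 2 and Z138 IBR_CLF 2 by 0.193, which is below or near the closest of the 23 pairs that share a label (0.186 to 2.21, median 0.625). Names of libraries form an HK series of 8 MINO-P and MINO-VR libraries and an MCL series of the other 48, and in those 2 lines CON and IBR come from different series.

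**Figure D1:**
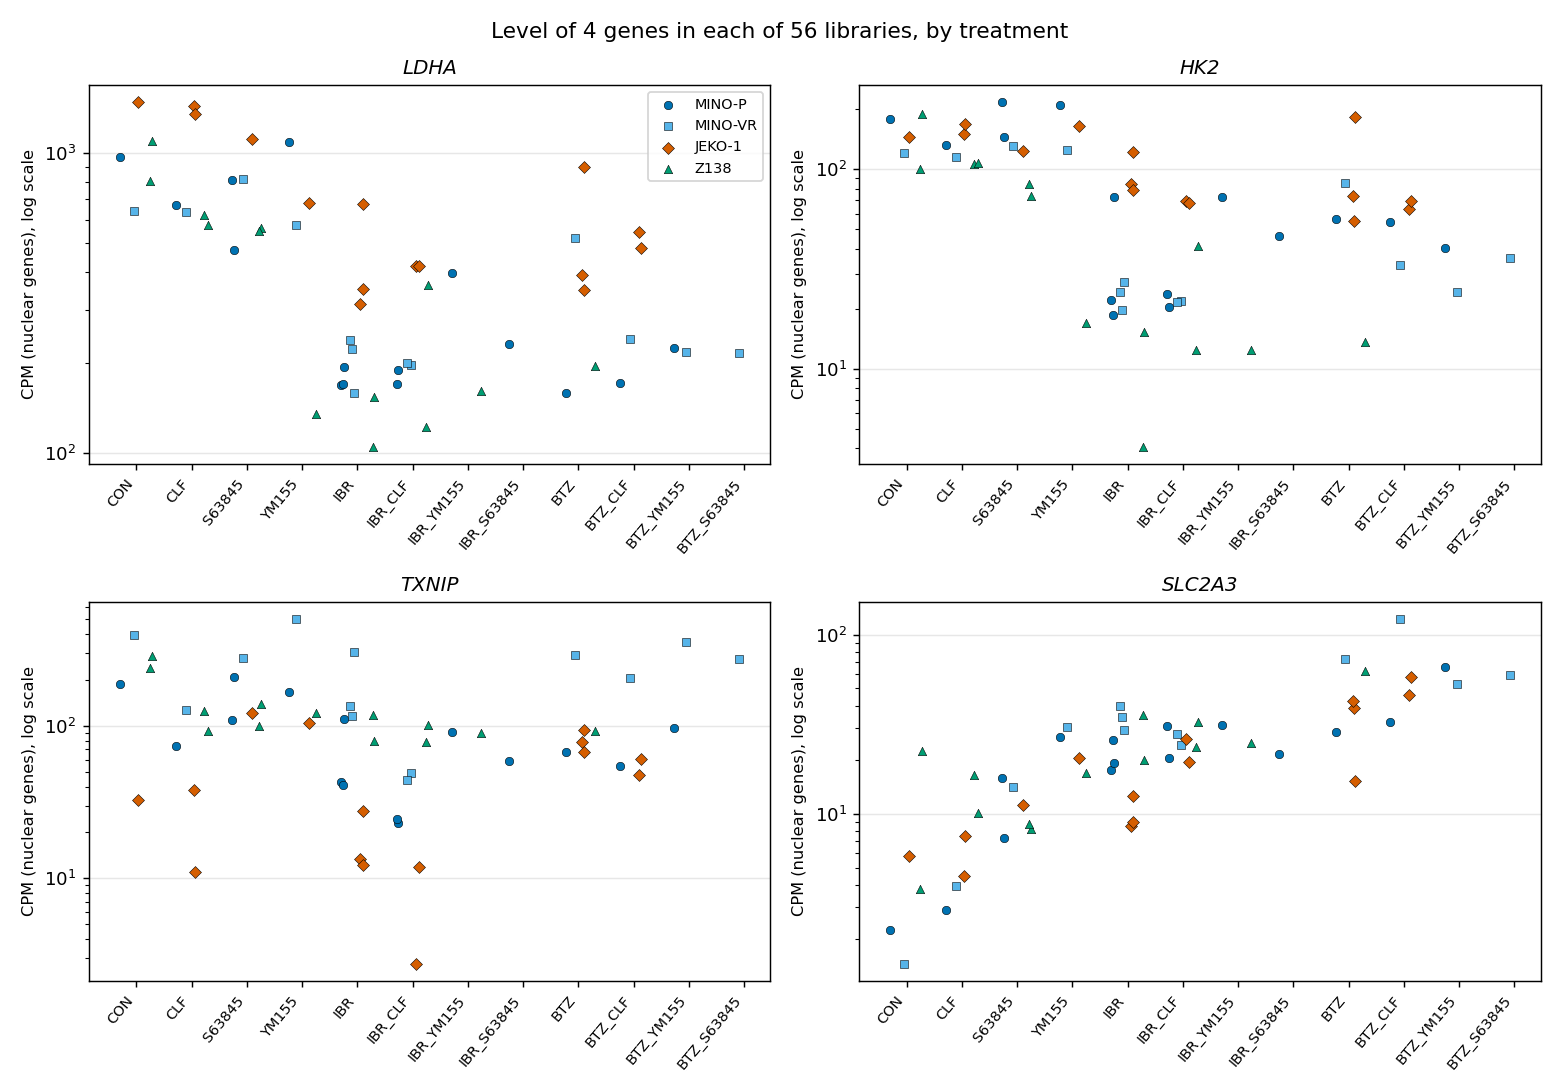
Levels of LDHA, HK2, TXNIP and SLC2A3 (nuclear CPM, log axis) in each of the 56 libraries by treatment, with cell lines by colour. LDHA in the 11 IBR libraries lies between 105 and 678 CPM and in the 5 CON libraries between 641 and 1475 CPM, while SLC2A3 has its lowest value, 1.45 CPM, in CON.

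IBR was set against CON in 1 limma model over all 56 libraries with terms for treatment, cell line and library series. The scale was log2(CPM + 1), which understates changes of low genes. In MINO-P and MINO-VR, CON is of the HK series, and IBR, S63845 and YM155 are of the MCL series. The series term takes up that step, so these fits are joined to CON only through JEKO-1 and Z138. Values of MINO-P and MINO-VR given beside the fit do not join IBR to CON in it. Of the 39 members 11 changed at a Benjamini-Hochberg adjusted p under 0.05, 3 higher and 8 lower, which is 28.2% of the members beside a background of 10.8% of the 17203 genes tested (4.37% higher and 6.39% lower). The member median was -0.15 on the log2 scale and that of all genes 0.00. Lower in IBR were the hexokinase HK2, the phosphofructokinase PFKP, the lower glycolytic enzymes TPI1, PGK1 and PGAM1, the lactate dehydrogenase LDHA, the kinase PDK1 and TXNIP. Higher were the glucose carrier SLC2A3, NDRG1 and the histone demethylase KDM3A. In bulk RNA, fewer cells that express a gene and less RNA of it per cell cannot be told apart.

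LDHA, which makes the main subunit of the enzyme that converts pyruvate to lactate (chr11:18394560-18408425), fell most. It stood at 972 CPM in MINO-P CON, 641 in MINO-VR CON, 1475 in JEKO-1 CON and 1093 and 804 in Z138 CON, against a lowest, median and highest of 105, 193 and 678 CPM in the 11 IBR libraries. Only the highest IBR library, JEKO-1 IBR 3, reached the range of CON, and within each of the 4 lines every IBR library lay below every CON library. The fitted log2 difference was -2.44 (SE 0.31, adjusted p = 1.58e-06, limma). Every one of the 28 alternative fits kept this call.

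HK2, the hexokinase bound to the mitochondrial surface and abundant in many tumours (chr2:74834127-74893359), went from 179, 121, 146, 189 and 100 CPM in the 5 CON libraries, in the line order used for LDHA, to a median of 24.3 CPM in IBR, with a lowest of 4.07 and a highest of 122. Its log2 difference was -2.42 (SE 0.44, adjusted p = 0.000278, limma), and 28 of 28 alternatives kept the call. By line, the difference of the means was -3.94 in Z138, -2.48 in MINO-P, -2.31 in MINO-VR and -0.64 in JEKO-1. A difference of IBR against CON between lines was tested for JEKO-1 and Z138 only, so MINO-P and MINO-VR did not enter. HK2 had an unadjusted p of 0.00318 in that test but an adjusted p of 0.406 (limma). It called 0 of 39 members beside 0% of all genes (938 genes and 7 members at an unadjusted p under 0.05). HK1, the hexokinase most tissues use, had a log2 difference of -0.04 (SE 0.41).

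The other phosphofructokinases and the early steps were less uniform. PFKP, the platelet-type phosphofructokinase (chr10:3066333-3137718), stood at 68.7 to 105 CPM in CON with a median of 88.1, and at 13.7 to 75.1 in IBR with a median of 23.8 (log2 difference -1.43, SE 0.37, adjusted p = 0.00821, limma). MINO-P IBR 3, at 75.1 CPM, was the only IBR library inside the range of CON. PFKL, the liver type, was lower in every IBR library than in CON of the same line but did not pass (-0.72, SE 0.52, adjusted p = 0.430). PFKM, the muscle type, was at 0.05 in the fit, whereas the difference of means was below 0 in all 4 lines (-0.80 to -0.11). GPI, which isomerizes glucose phosphate, was at -0.50 (SE 0.25). The regulators PFKFB3 and PFKFB4, which set the level of the activator of phosphofructokinase, were at -0.77 and -0.42 and did not pass.

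Among the 9 members of lower glycolysis, 3 fell. TPI1, the triose phosphate isomerase, went from a median of 654 CPM in CON to 341 in IBR (-0.88, SE 0.20, adjusted p = 0.00276). PGAM1, a phosphoglycerate mutase, was at -0.88 (adjusted p = 0.00350). PGK1, which makes the first ATP of the pathway, is the 1 member of 39 whose groups did not overlap, beside 2.52% of all genes: its 11 IBR libraries lay between 274 and 371 CPM and its 5 CON libraries between 401 and 774 (-0.81, SE 0.20, adjusted p = 0.00629). The remaining 6 did not pass. GAPDH, the dehydrogenase between TPI1 and PGK1 in the pathway, was at 0.16, the aldolase ALDOA at 0.06 and the pyruvate kinase PKM at -0.10, while ALDOC was at -1.13, ENO1 at -0.78, ENO2 at 1.01 and the lactate dehydrogenase LDHB at -0.44 (adjusted p = 0.228). The enolase ENO1 and LDHB were lower in every IBR library than in CON of the same line. The 17 enzymes of glycolysis in the list took 0.885% to 1.42% of the nuclear reads in CON (median 1.26%) and 0.745% to 1.32% in IBR (median 0.920%). GAPDH, PGK1, PKM, ENO1, LDHA, ALDOA, TPI1, PGAM1, BNIP3 and HK2 have processed pseudogenes, and SLC2A3 a close copy in SLC2A14, so reads may have been split between copies.

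SLC2A3, the high-affinity glucose carrier GLUT3 (chr12:7919230-8019007), rose. In CON it stood at 2.23 CPM in MINO-P, 1.45 in MINO-VR, 5.79 in JEKO-1 and 22.3 and 3.78 in Z138. In IBR its lowest, median and highest were 8.56, 19.9 and 40.0 CPM. Z138 CON 1 was the only CON library inside the range of IBR, and the log2 difference was 1.48 (SE 0.35, adjusted p = 0.00425, limma). SLC2A1, the common carrier GLUT1, was at -0.42 and the lactate carriers SLC16A1 and SLC16A3 at 0.37 and 0.86, none past the threshold. SLC16A3, which exports lactate, lay above CON in every IBR library of the same line, by 0.68 to 1.44 in the difference of means.

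Of the 12 members made up of HIF1A and its targets outside glycolysis, 2 rose and 0 fell. NDRG1, a stress-responsive gene, stood at 1.41 to 13.6 CPM in CON (median 2.60) and at 7.18 to 61.7 in IBR (median 38.9), a log2 difference of 2.11 (SE 0.61, adjusted p = 0.0186, limma). KDM3A, a demethylase of histone H3 (chr2:86440647-86492716), went from a median of 66.0 to 163 CPM (0.91, SE 0.25, adjusted p = 0.0133). HIF1A itself was at -0.06, BNIP3 at -0.25, BNIP3L at 0.38, VEGFA at 0.41, ADM at 0.17, EGLN1 at 0.34, EGLN3 at -0.15, P4HA1 at -0.12, MXI1 at 0.27 and ANKRD37 at -0.72. PDK1, a kinase that inhibits pyruvate dehydrogenase and is itself a target of HIF1A, fell (-1.06, SE 0.34, adjusted p = 0.0376, limma). It was lower than CON in every IBR library of MINO-P, MINO-VR and Z138, whereas in JEKO-1 CON was at 17.9 CPM and IBR at 18.0, 20.2 and 23.8. Its sister PDK3 was at 0.04.

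TXNIP (chr1:145992435-145996579) fell by 1.56 on the log2 scale under IBR (SE 0.42, adjusted p = 0.0111, limma). It stood at 187 CPM in MINO-P CON, 396 in MINO-VR, 32.8 in JEKO-1 and 289 and 240 in Z138, against a lowest, median and highest of 12.3, 79.0 and 305 in IBR. The ranges of IBR and CON overlapped, but within each line every IBR library was below CON. ARRDC4 was at -0.74 (adjusted p = 0.286).

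With JEKO-1 and Z138 alone, where CON and IBR are of one library series, 4 members kept the call, all lower: LDHA (-2.40, adjusted p = 0.00201), HK2 (-2.41, adjusted p = 0.0428), PGAM1 (-1.10, adjusted p = 0.0218) and TPI1 (-1.12, adjusted p = 0.0350, limma). In that fit SLC2A3 was at 0.97 (adjusted p = 0.372), KDM3A at 0.81 and TXNIP at -1.41 (adjusted p = 0.305). In MINO-P and MINO-VR, IBR and library series cannot be told apart within the line. Single libraries decided 3 calls. Without JEKO-1 CON 1 or Z138 CON 2, NDRG1 (adjusted p = 0.0715 and 0.0683) and KDM3A (0.0689 and 0.0688) no longer passed, and PDK1 no longer passed without MINO-P CON 1, Z138 CON 1, Z138 CON 2 or Z138 IBR 1 (0.0662 to 0.215, limma). PDK1 also lost the call with the name suffix of each line (whether a library's name ends in a letter) as replicate block (adjusted p = 0.0535, limma). NDRG1, KDM3A and PGAM1 lost it when the closest pairs of libraries with unlike labels were left out, and NDRG1 also without JEKO-1. With the deposited totals TPI1, PGAM1, PGK1 and PDK1 lost the call, and with libraries whose names differ by a final letter averaged HK2, LDHA, TPI1, SLC2A3 and KDM3A kept it.

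**Figure D2:**
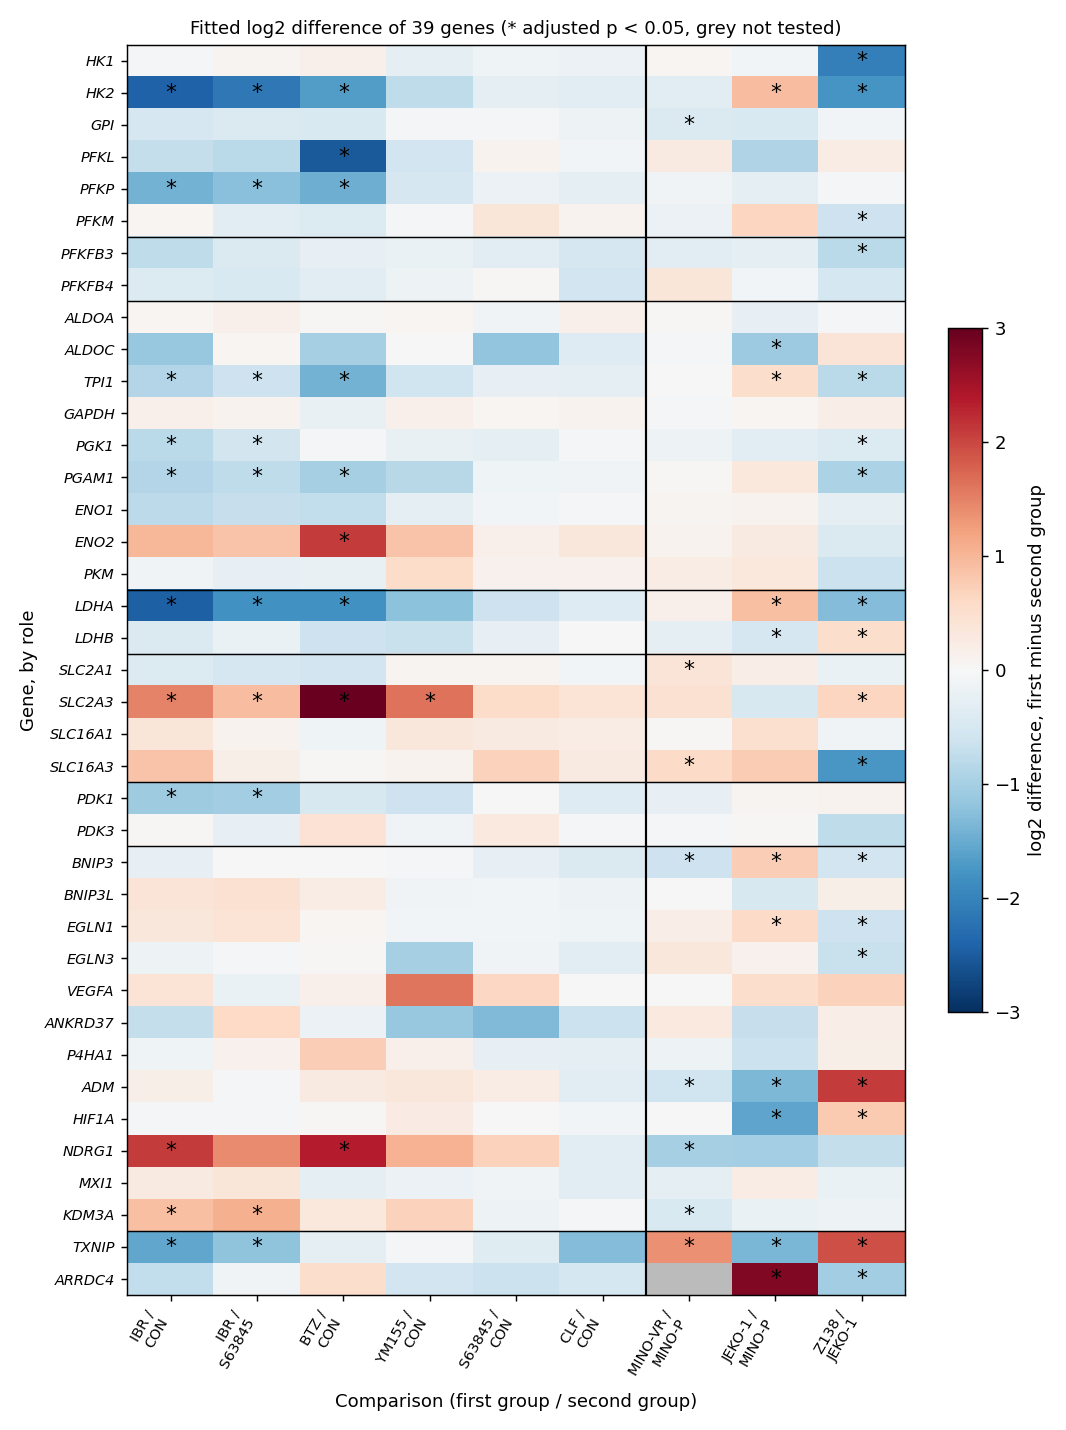
Fitted log2 differences of the 39 genes (rows, by role) in 9 comparisons (columns), from lower (blue) to higher (red); an asterisk marks an adjusted p under 0.05 and grey a gene not tested. Under IBR, 11 genes carry an asterisk against CON and 10 against S63845, with LDHA and HK2 lowest in both.

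Genes of the same pathways outside the members were also counted in IBR against CON, where 4.37% of all genes were higher and 6.39% lower. These lists are small and were not tested as sets. Of 13 tested isozymes and sugar entry genes, 0 rose and 4 fell, among them the fructose carrier SLC2A5 (-1.87) and the phosphoglucomutase PGM2 (-0.86), with a list median of -0.47. Of 26 further hypoxia response genes 4 rose, among them PLOD1 (1.35), RRAGD (1.17) and JMJD6 (1.06), and 1 fell, the glycogen branching enzyme GBE1 (-1.33); their median was 0.11. Of 9 regulators of HIF1A, OS9 alone was higher (1.04). In a list of 7 MondoA partners, arrestin relatives and thioredoxin genes, the thioredoxin reductase TXNRD1 (1.32) and the arrestin relative ARRDC3 (1.21) were higher and 0 lower. Of 12 genes of pyruvate entry, PDHA1 was lower (-0.65). In the pentose phosphate branch, PGD was higher (1.17) and RPIA lower (-1.04) among 7.

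S63845 shares the MCL series with IBR in all 4 lines, so IBR was also set against S63845; this comparison uses the same IBR libraries. Here 10 of 39 members changed, 2 higher and 8 lower, beside a background of 13.4% of all genes (4.22% higher, 9.18% lower, which is 726 against 1580 genes, and 974 against 1347 with size factors). LDHA stood at 477 to 1113 CPM under S63845 with a median of 687, and its log2 difference was -1.83 (SE 0.26, adjusted p = 9.72e-06, limma). HK2 was at 73.1 to 217 CPM under S63845 (median 127), with -2.14 (SE 0.37, adjusted p = 0.000134). PFKP (-1.26), TXNIP (-1.20), PDK1 (-1.04), PGAM1 (-0.76), TPI1 (-0.62) and PGK1 (-0.54) were also lower. KDM3A (1.07) and SLC2A3 (0.94) were higher. LDHA was lower in every line without overlap. TXNIP was lower without overlap in JEKO-1 alone (-2.80), where S63845 was a single library. In the other lines its libraries overlapped (-1.36 to -0.29), and without JEKO-1 it lost the call. Libraries of a line could still differ within the shared series. In MINO-P, PFKP was at 19.8, 22.7 and 75.1 CPM under IBR and at 114 and 65.8 under S63845. HK2 in JEKO-1 was at 84.2, 78.8 and 122 CPM under IBR and at 123 under S63845. LDHA in MINO-P was at 169, 171 and 193 CPM under IBR and at 814 and 477 under S63845. For HK2 the difference was -0.40 in JEKO-1 and -2.42 to -3.14 in the other lines, with an adjusted p of 0.413 in limma for the test between lines, which called 0 of 39 members beside 0.187% of all genes (1831 genes and 9 members at an unadjusted p under 0.05). Without 1 or another library SLC2A3, TXNIP, PGK1 and TPI1 lost the call (adjusted p = 0.0513 to 0.105, limma), as did SLC2A3 and PGK1 with the name suffix of each line as replicate block (0.0513 and 0.0518). With JEKO-1 and Z138 alone, 0 members passed, and LDHA had an adjusted p of 0.0900 (limma). Set directly against CON, S63845 called 0 of 39 members (0% of all genes, with 428 genes and 2 members at an unadjusted p under 0.05 in limma).

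BTZ against CON called 9 of 39 members, 3 higher and 6 lower, which is 23.1% of the members beside 18.6% of all genes (4.87% higher and 13.8% lower), a share near the background. Members and all genes had the same median of -0.17. With the deposited totals, mitochondrial genes included, the median of all genes was -0.42, and the split of all calls went from 838 higher and 2366 lower to 288 and 3678. This comparison uses the same CON libraries as IBR. SLC2A3 rose most, from the CON levels above to 28.5 CPM in MINO-P, 73.5 in MINO-VR, 39, 42.3 and 15.1 in JEKO-1 and 62.8 in Z138 (2.96, SE 0.36, adjusted p = 1.97e-07, limma). It was above CON in all 4 lines. ENO2, the neuronal enolase, rose to a median of 48.2 CPM from 11.1 (2.10, SE 0.52, adjusted p = 0.00281). NDRG1 rose in the fit (2.35, SE 0.62, adjusted p = 0.00521), with a lowest value of 0 in JEKO-1 BTZ 3 and 17.9 to 122 CPM in the other 5 BTZ libraries. With JEKO-1 and Z138 alone, ENO2 (0.84, adjusted p = 0.378) and NDRG1 (adjusted p = 0.374, limma) did not pass, and the difference of means of ENO2 ran from 0.25 to 4.66 over the 4 lines.

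Lower under BTZ were TPI1, LDHA, PFKL, PFKP, PGAM1 and HK2. TPI1 did not overlap between groups (1 of 39 members, beside 3.99% of all genes), with 203 to 439 CPM in BTZ and 474 to 890 in CON (-1.41, SE 0.20, adjusted p = 3.66e-06, limma). LDHA was at 159 to 900 CPM with a median of 371 (-1.82, SE 0.31, adjusted p = 4.33e-05), its highest value in JEKO-1 BTZ 3. PFKL (chr21:44300051-44327376) stood at 129 CPM in MINO-P, 188 in MINO-VR, 32.6, 36.2 and 0 in JEKO-1 and 43.4 in Z138, and was at -2.53 (SE 0.53, adjusted p = 0.000559). Without JEKO-1 BTZ 3, PFKL was at -1.70 and NDRG1 at 3.25, and 11 members passed, with PDK1 lower and SLC16A3 higher in addition. HK2 was at -1.68 (adjusted p = 0.00529) and PFKP at -1.46; in MINO-VR the differences of means were -0.49 and -0.11. PGAM1 lost the call without JEKO-1 (adjusted p = 0.0982, limma). TXNIP did not pass under BTZ (-0.30): it was above CON in the 3 JEKO-1 libraries and below CON in the other 3 lines, a difference between lines that was not tested. Outside the members, 0 of 13 isozymes and sugar entry genes rose and 7 fell under BTZ, with SLC16A7 (-1.54), ENO3 (-1.53) and SLC2A5 (-1.53) farthest, and 2 rose and 4 fell among 26 hypoxia response genes, MIF (-2.05) and FAM162A (-1.95) among the latter. Of 9 regulators of HIF1A 0 passed. Among the 7 MondoA partners, arrestin relatives and thioredoxin genes 2 rose, TXNRD1 and ARRDC3, and 1 fell. Among 12 genes of pyruvate entry 0 rose and 3 fell. In the pentose phosphate branch 1 rose and 2 fell. Of all genes tested under BTZ, 4.87% were higher and 13.8% lower, and these small lists were not tested as sets.

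YM155 against CON called 1 of 39 members beside 1.15% of all genes (0.738% higher; 127 genes higher and 70 lower, and 87 and 105 with size factors). This was SLC2A3, at 16.8 CPM in Z138, 26.9 in MINO-P, 30.5 in MINO-VR and 20.4 in JEKO-1 (1.63, SE 0.42, adjusted p = 0.0375, limma). It was kept in 7 of 21 alternative fits and lost the call without any one of the 4 YM155 libraries (adjusted p = 0.0610 to 0.130) or without JEKO-1 CON 1, MINO-P CON 1, MINO-VR CON 1 or Z138 CON 2 (0.0596 to 0.144, limma). VEGFA, the vascular growth factor, was at 154 to 311 CPM with 1.60 and an adjusted p of 0.0756. LDHA under YM155 was at 136 CPM in Z138 and at 577 to 1086 in the other lines, a difference that was not tested.

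CLF against CON called 0 of 39 members (0% of all genes in limma, with 62 genes and 1 member at an unadjusted p under 0.05), IBR_CLF against IBR called 0 (0% of all genes, 1679 genes and 2 members unadjusted), and BTZ_CLF against BTZ called 0 (0.0698% of all genes, 1284 genes and 3 members unadjusted). In the 8 IBR_CLF libraries LDHA was at 123 to 420 CPM with a median of 198, beside 193 under IBR, and HK2 at 12.5 to 69.4 with a median of 22.8. In BTZ_CLF the 4 libraries gave SLC2A3 at 32.6 to 122 CPM. The 6 libraries of other combinations had LDHA between 161 and 397 CPM, below all CON libraries, and SLC2A3 between 21.5 and 66.2 CPM.

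TXNIP had the lowest unadjusted p of the members in the first 2 of these comparisons, at -1.30 in CLF against CON (adjusted p = 1.00) and -1.12 in IBR_CLF against IBR (adjusted p = 0.226). CLF present was therefore set against CLF absent over 39 libraries in 11 pairs of groups matched for line and partner drug, a comparison added after seeing these values. It called 0 of 39 members (0% of all genes, with 1378 genes and 5 members at an unadjusted p under 0.05 in limma). TXNIP was at -1.03 (SE 0.18, adjusted p = 0.0576), the lowest p of the 16757 genes tested. It was lower with CLF in 11 of 11 pairs of groups, and in 9 of them no library overlapped. In MINO-P and MINO-VR, without a partner or with BTZ, each side held a single library, so an overlap was not possible there. The comparison also holds the libraries in which TXNIP was first seen to be low, so it is not separate support. With no partner, TXNIP stood at 187 CPM without and 73.2 with CLF in MINO-P, at 396 and 127 in MINO-VR, and at 289 and 240 without and 125 and 93.2 with CLF in Z138, while JEKO-1 CON was at 32.8 and JEKO-1 CLF at 38.0 and 11. With IBR as partner, the medians of all lines together were 34.2 CPM with CLF and 79.0 without. The smallest difference was in Z138 with IBR (-0.12), which like JEKO-1 without a partner holds 2 of the near-identical libraries. Leaving out single libraries gave an adjusted p of 0.0118 to 0.185, under 0.05 without JEKO-1 CON 1, JEKO-1 CLF 1, JEKO-1 IBR_CLF 2, JEKO-1 BTZ 3, Z138 IBR 2 or Z138 IBR_CLF 1. Without JEKO-1 it was 0.0190, with the name suffix of each line as replicate block 0.149, with the deposited totals 0.0187 (which shifted the median of all genes from 0.01 to -0.13), and with libraries whose names differ by a final letter averaged it was 0.843 (-1.06). EGLN3, an oxygen-sensing hydroxylase, was lower in 11 of 11 pairs of groups by a smaller amount (-0.31, adjusted p = 0.570, limma). SLC2A3 was higher in 10 of 11 (0.39, adjusted p = 0.575, limma). These counts of pairs, that of TXNIP included, were made for the 39 members alone. How often other genes reach them was not tested.

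**Figure D3:**
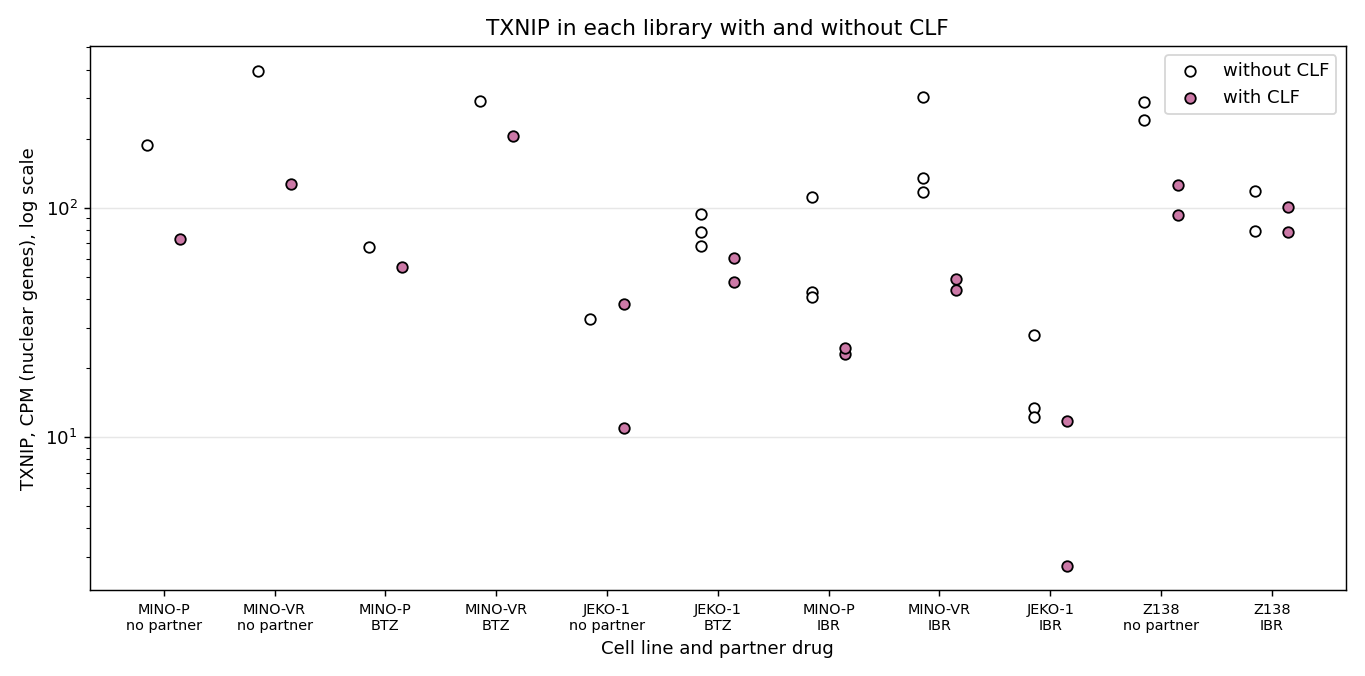
TXNIP (nuclear CPM, log axis) in each library without and with CLF, in the 11 pairs of groups matched for cell line and partner drug. The mean is lower with CLF in 11 of 11 pairs, and the libraries overlap in JEKO-1 without a partner and in Z138 with IBR. In MINO-P and MINO-VR, without a partner or with BTZ, each side is a single library and cannot overlap.

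Between cell lines, treatments found in both lines were compared. For MINO-VR against MINO-P 8 of 38 members tested passed, 3 higher and 5 lower, beside 23.5% of all genes (14.2% higher and 9.31% lower). For JEKO-1 against MINO-P 11 of 39 passed, 6 higher and 5 lower, beside 29.2% (17.8% higher and 11.4% lower). For Z138 against JEKO-1 18 of 39 passed, 5 higher and 13 lower, beside 47.8% (23.1% higher and 24.7% lower). The split of all calls depended on the scaling for the last 2: from 2910 higher and 1864 lower to 1408 and 2454 with the deposited totals and 2351 and 2397 with size factors in JEKO-1 against MINO-P (a median of all genes of 0.11, -0.17 and 0.00), and from 3751 and 4024 to 5241 and 2495 in Z138 against JEKO-1. These shares of members (21.1%, 28.2% and 46.2%) are near the background, so as a set the members differed between lines about as often as other genes. The JEKO-1 and MINO-P difference rests on IBR, IBR_CLF, YM155 and S63845, for which both lines have MCL libraries. It called 19 members without JEKO-1 BTZ 3 or without MINO-P BTZ 1, which enter the spread only.

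HIF1A (chr14:61695513-61748259) was lowest in JEKO-1. It stood at 38.1 to 69.1 CPM in JEKO-1 (median 47.8), 56.7 to 119 in Z138 (90.0), 88.1 to 298 in MINO-P (155) and 97.1 to 266 in MINO-VR (164). JEKO-1 and MINO-P did not overlap, as for 2 of 39 members and 3.78% of all genes (-1.58, SE 0.21, adjusted p = 4.51e-06, limma), Z138 was above JEKO-1 (0.79, SE 0.15, adjusted p = 0.000210), and the MINO cultures were neighbours that did not differ past the threshold. ADM, a vasodilator peptide and HIF1A target, had medians of 9.20 CPM in JEKO-1, 35.4 in Z138, 33.2 in MINO-P and 22.6 in MINO-VR, and was lower in JEKO-1 than MINO-P (-1.34) and higher in Z138 than JEKO-1 (2.10). BNIP3, a mitophagy receptor, had another order, with medians of 61.7 CPM in JEKO-1, 39.9 in Z138, 39.1 in MINO-P and 26.9 in MINO-VR (0.74 in JEKO-1 against MINO-P, -0.63 in MINO-VR against MINO-P).

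ARRDC4 (chr15:97960703-97973833) was at or near 0 in both MINO cultures. All 13 MINO-VR libraries were at 0, where 3 reads correspond to at most 0.453 CPM, and MINO-P had a highest value of 0.947. JEKO-1 stood at 2.30 to 55.7 CPM (median 11.1) and Z138 at 1.64 to 9.35 (median 2.23). JEKO-1 exceeded MINO-P in every library (fitted difference 2.78, adjusted p = 2.00e-05, which depends on the 1 CPM added), and Z138 was below JEKO-1 (-1.04, adjusted p = 0.0253). TXNIP, its relative, had another order, with medians of 274 CPM in MINO-VR, 101 in Z138, 73.2 in MINO-P and 38.0 in JEKO-1. It was higher in MINO-VR than MINO-P (1.37, SE 0.18, adjusted p = 1.09e-05), lower in JEKO-1 than MINO-P (-1.36) and higher in Z138 than JEKO-1 (1.94).

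Among enzymes and carriers, Z138 had low HK1, with a median of 21.2 CPM beside 115 in JEKO-1, 104 in MINO-P and 121 in MINO-VR (-2.05 against JEKO-1, SE 0.38, adjusted p = 0.000121). SLC16A3 followed, with 29.0 CPM in Z138 beside 150 in JEKO-1 (-1.76). HK2 and LDHA were higher in JEKO-1 than MINO-P (0.93 and 0.90) and lower in Z138 than JEKO-1 (-1.77 and -1.30), while LDHB, the subunit that favours the reverse reaction, went the other way (-0.49 and 0.52). MINO-VR had more SLC16A3 (0.58) and SLC2A1 (0.38) and less NDRG1 (-1.01), ADM (-0.59), KDM3A (-0.46) and GPI (-0.43) than MINO-P. JEKO-1 also had more EGLN1 (0.58) and TPI1 (0.53) and less ALDOC (-1.08) than MINO-P. Several of these calls depended on the processing: SLC2A1 in MINO-VR against MINO-P kept the call in 14 of 31 alternatives, ALDOC in JEKO-1 against MINO-P in 13 of 34 and HK2 there in 21 of 34, with adjusted p values up to 0.135, 0.183 and 0.35 (limma). With the deposited totals, HK2 (0.55), LDHA (0.52), BNIP3 (0.37), EGLN1 (0.21) and TPI1 (0.16) did not pass in JEKO-1 against MINO-P. Z138 had less PGAM1 (-0.95), TPI1 (-0.81), PFKFB3 (-0.81), EGLN3 (-0.66), EGLN1 (-0.62), PFKM (-0.61), BNIP3 (-0.58) and PGK1 (-0.41) and more SLC2A3 (0.65) than JEKO-1. The SLC2A3 call was kept in 12 of 31 alternatives (adjusted p up to 0.113, limma). The deposited totals shifted the median of all genes in this comparison from -0.03 to 0.29 and ended the calls of TPI1 (-0.40), PFKFB3 (-0.41), EGLN3 (-0.29), EGLN1 (-0.21), PFKM (-0.21), BNIP3 (-0.18), PGK1 (0.00) and ARRDC4 (-0.71).

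In Z138 alone, with 2 IBR and 2 CON libraries of one series, 0 of 39 members passed in a limma fit of its 13 libraries (0% of all genes, with 2748 genes and 14 members at an unadjusted p under 0.05), and 18 of 39 (46.2%) did not overlap, near the 44.6% of all genes. LDHA was at 1093 and 804 CPM in CON and 105 and 154 in IBR (-2.87, SE 0.46), and HK2 at 189 and 100 against 4.07 and 15.2 (-3.94, SE 0.64), both with an adjusted p of 0.105. With the name suffix as replicate block 8 members passed, all lower: HK2, LDHA, PDK1, PFKP, TPI1 and TXNIP (each with an adjusted p of 0.0392), PGAM1 (0.0429) and PFKL (0.0469, limma). The differences between lettered and plain libraries of Z138 went together between treatments, with correlations across genes of 0.191 to 0.694 in 10 of 10 pairs of treatments. Without Z138 IBR 2, and with no block, 7 members passed.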

How the data were processed

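RNA-seq was measured in 56 libraries of 4 mantle cell lymphoma cultures. The authors deposited 1 table of log2 values, read here as log2(CPM + 1) because each column sums to about 1 M CPM once the log2 is undone; the submitters' processing notes name Partek and hg38, and the aligner and counter are not given in the sources used here. All value columns matched a library by name, and 1 row without a gene name was left out (at most 0.000773% of a library). Of the low values, 77.9% to 90.1% came out as whole reads within 0.05 of a read, so no count model was used.

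CPM was rescaled to a total of 1 M over the named genes after 15 mitochondrial genes were left out. Tests were limma 3.58.1 (R 4.3.3, intensity trend) on log2(CPM + 1), for genes at 1 CPM or more in 2 or more libraries of the fit, with Benjamini-Hochberg adjustment over all genes tested and a call at adjusted p under 0.05. Treatments were compared in 1 additive model of treatment, line and library series (40 residual degrees of freedom), lines in models of matched treatments. Levels are nuclear CPM; "difference of means" is of mean log2 values within a line. The members and gene lists were chosen with earlier results of these data known. Up to 6 called members in each direction were described in full, and up to 3 called genes of each other list. Replicate numbers only name libraries in accession order. Differences between libraries named with and without a final letter (name suffix) were correlated between groups in Z138 (over 0.1 in 10 of 10 pairs of groups), but in 0 of 6 pairs in JEKO-1, 0 of 1 in MINO-P and 1 of 1 in MINO-VR. Alternatives were the deposited totals, size factors (median of ratios over genes above 5 CPM in every library), no filter, a pseudocount of 0.25, array weights, averaging of lettered names, no series term, fewer lines and leaving out single libraries. CLF present against absent and the test of IBR against CON between JEKO-1 and Z138 were added after seeing the data. So were leaving out JEKO-1 BTZ 3 or the closest pairs of unlike labels, and the suffix of each line as replicate block. The fits were run on simulated data in which libraries were drawn independently. That setting lacks the near-identical libraries and the step between library series, so it cannot show how the fits handle these. Counts of 3 reads give the detection limit, which covers counting error only.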

Additional observations from a re-analysis of the deposited data

Results flagged for a closer look

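In the comparisons without a test between lines, there were 24 cases, over 19 members, in which all libraries of one line lay above the reference group and all libraries of another line below it, taking lines with 3 or more libraries. None of these differences between lines was tested, and each arm held 1 to 3 libraries. In BTZ against CON there were 8 (20.5% of the members, beside 10.9% of all genes), with the gap between JEKO-1 and Z138 in mean log2 values as follows: JEKO-1 was above CON and Z138 below for ARRDC4 (a gap of 4.32), ANKRD37 (3.02), TXNIP (2.76), PDK3 (2.71), EGLN1 (1.43) and HIF1A (0.92), and the reverse held for GAPDH (2.55) and PKM (2.09). In CLF against CON (5 of 39, beside 4.51% of all genes), JEKO-1 was above and Z138 below for ALDOC (2.69), PFKFB4 (2.01), ARRDC4 (1.35), PFKFB3 (1.31) and GAPDH (0.57). JEKO-1 itself was above CON by only 0.16 (PFKFB3) to 0.51 (ALDOC), and JEKO-1 CLF 1 and JEKO-1 CON 1 are near-identical libraries. In S63845 against CON (2 of 39, beside 6.77%), MINO-P and Z138 were opposed for ADM (1.75, lower in MINO-P) and HIF1A (0.85, higher in MINO-P). In IBR_CLF against IBR, 9 members (23.1%, beside 14.1% of all genes) were opposed between some pair of lines: PFKP (2.14), SLC16A1 (1.73), PDK3 (1.55), SLC2A3 (1.5), ALDOC (1.31), P4HA1 (1.29), SLC16A3 (1.00), PGK1 (0.70) and TPI1 (0.23). In JEKO-1 the BTZ values include the library JEKO-1 BTZ 3, which stood apart. The Z138 values of IBR_CLF against IBR include the near-identical libraries Z138 IBR 2 and Z138 IBR_CLF 2.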

How the results depend on the processing

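Counts of members called moved by over 1.5 times as follows. IBR against CON (11) gave 7 with the deposited totals, 18 with array weights, 5 with lettered names averaged and 4 with JEKO-1 and Z138 only, and 8 to 13 when single libraries were left out. IBR against S63845 (10) gave 5, 17, 4 and 0 in the same order, and 7 to 15. YM155 against CON (1) gave 0 with the deposited totals, with lettered names averaged, with JEKO-1 and Z138 only and without the closest pairs of unlike labels, 2 with size factors or no series term, 5 with array weights, and 0 to 4 without single libraries (4 without JEKO-1 BTZ 3). BTZ against CON (9) stayed at 9 to 11 without single libraries. Array weights gave 1 in CLF against CON, 2 in IBR_CLF against IBR and in CLF present against absent, 6 in IBR against S63845 by cell line and 20 in JEKO-1 against MINO-P. Lettered names averaged gave 5 in MINO-VR against MINO-P (8), 3 in JEKO-1 against MINO-P (11) and 11 in Z138 against JEKO-1 (18), as did the deposited totals in the last. Without single libraries these 3 gave 7 to 10, 9 to 19 and 15 to 23. CLF present against absent (0) gave 1, TXNIP, with the deposited totals, without JEKO-1 and without the closest pairs, and 0 to 1 without single libraries. In Z138, IBR against CON (0) gave 0 to 7 without single libraries and 8, all lower, with the name suffix as replicate block: HK2, LDHA, PDK1, PFKL, PFKP, PGAM1, TPI1 and TXNIP. The name suffix of each line as replicate block, added after seeing the data, changed no count of the other treatment comparisons by over 1.5 times (10 for IBR against CON, 8 for IBR against S63845, 10 for BTZ against CON). The remaining counts, those of CLF against CON, S63845 against CON, IBR_CLF against IBR, BTZ_CLF against BTZ and the by-line test, were 0 without any single library. Of 1997 refits of single called members, 1803 kept the call, 193 lost it and 1 changed sign (PGK1 in Z138 against JEKO-1, 0.00257 with the deposited totals). The causes were not tested. Lettered names could not be averaged in the Z138 comparison, and the by-line test could not be fitted without MINO-VR S63845 1 or JEKO-1 S63845 1. Low members such as ARRDC4 and PFKFB4 are limited by depth: 3 reads correspond to 0.145 to 2.18 CPM.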
